A study of Mus musculus with 6 samples.

Results

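Messenger RNA of 8 genes that carry the cone's channel current and its calcium feedback was examined in cones of knockout and control mice for Bmal1, the gene for the core circadian activator BMAL1. The genes were chosen by symbol: Cnga3 and Cngb3 (channel), Slc24a2 (exchanger), Gucy2e and Gucy2f (guanylate cyclases), Guca1a and Guca1b (cyclase activators) and Rcvrn (recoverin). All 8 were among the 9720 protein-coding genes of the deposited table, and all 8 passed the minimum mean of 1 FPKM (fragments per kilobase of transcript, adjusted for library size by the authors). Knockout mice had the genotype HRGPcre;Bmal1f/f;Z/EG, with 2 floxed copies of Bmal1, and controls the genotype HRGPcre;Bmal1f/+;Z/EG, with 1 floxed copy. Thus the controls, too, carried the cone Cre, the reporter and 1 allele that Cre can delete. HRGPcre places Cre under a human red/green opsin promoter, and the reporter Z/EG turns cells green once Cre has acted. Adult mice of a mixed C57BL/6 background lived under 12 h of light and 12 h of dark. Their age is labelled as postnatal day 60 to 80 and also as 2 to 6 months, and no hour of collection is given in the labels. Green cells were sorted from dissociated retinas, and 3 libraries were made per genotype. Whether animals were pooled is not stated, so p-values describe only the spread between these libraries, which may be partly technical.

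In the dark, cyclic GMP holds the cone's cation channel open, and sodium and calcium enter the outer segment. The exchanger carries calcium back out. Light lowers cyclic GMP, the channel closes, and calcium falls while the exchanger goes on working. Guanylate cyclase activating proteins sense that fall and speed up the cyclases, which remake cyclic GMP and reopen the channel. Recoverin senses the same calcium signal and, when calcium is high, holds back the kinase that shuts off the opsin. This loop lets a cone recover quickly and adapt to steady light.

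Promoter windows are shown for the cyclases Gucy2e and Gucy2f and the activator Guca1a, since these hold letters favoured by photoreceptor factors and by nuclear receptors. RefSeq (GRCm38.p6) gave windows of 250 bases before to 50 after a start for 5 of the 8 genes, 7 windows in all. Cngb3, Guca1b and Rcvrn were not matched. The motifs were chosen after the windows had been read and were searched on both strands. Capitals mark GGATTA or its reverse TAATCC, the letters favoured by the photoreceptor homeodomain factors CRX and OTX2, and AGGTCA, the core letters bound by nuclear receptors such as the REV-ERB and ROR proteins. Each window is written along its own gene's strand, here the minus strand for all of them.
Guca1a, chr17:47400557-47400856: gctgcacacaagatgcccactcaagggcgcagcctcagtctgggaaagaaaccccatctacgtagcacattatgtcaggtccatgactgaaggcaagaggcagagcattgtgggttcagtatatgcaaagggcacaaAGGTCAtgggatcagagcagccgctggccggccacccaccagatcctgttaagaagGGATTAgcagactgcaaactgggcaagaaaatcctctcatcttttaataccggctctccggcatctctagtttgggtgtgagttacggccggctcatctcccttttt
Gucy2e, chr11:69236973-69237272: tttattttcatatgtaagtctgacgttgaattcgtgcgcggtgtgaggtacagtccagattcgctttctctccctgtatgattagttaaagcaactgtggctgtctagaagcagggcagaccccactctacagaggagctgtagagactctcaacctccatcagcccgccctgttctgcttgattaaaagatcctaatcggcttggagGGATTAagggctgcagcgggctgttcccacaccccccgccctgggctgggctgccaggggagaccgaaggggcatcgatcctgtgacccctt
Gucy2f, chrX:142196887-142197186: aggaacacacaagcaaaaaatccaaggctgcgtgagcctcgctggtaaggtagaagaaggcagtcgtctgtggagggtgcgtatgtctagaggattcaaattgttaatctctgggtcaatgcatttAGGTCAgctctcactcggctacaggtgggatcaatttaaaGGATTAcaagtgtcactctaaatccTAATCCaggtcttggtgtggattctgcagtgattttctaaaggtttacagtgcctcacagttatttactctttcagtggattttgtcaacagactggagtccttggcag

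GGATTA or TAATCC stood in 3 of the 7 windows (3 of the 5 genes), once in Guca1a, once in Gucy2e and 2 times in Gucy2f. Their first bases lay between -84 and -42 from the start. Of all 32851 promoter windows of the same length, 7.06% held these letters. AGGTCA stood once each in Guca1a at -113 and in Gucy2f at -124, and 16.3% of all windows held it or its reverse TGACCT. No marked stretch overlapped another. The E-box CACGTG, bound by BMAL1 with CLOCK, was in none of the 7 windows, against 7.15% of all windows. The variant CACGTT, or AACGTG on the other strand, was also in none, against 4.69%. At shares this low, 7 windows often hold none, so these counts do not set the genes apart. These letters being absent says nothing of sites outside the windows. The pair of windows of Slc24a2 and the pair of Cnga3 held none of the 4 motifs.

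The sorted cells were checked against markers. Summed over the 9 cone markers, libraries reached 5495 to 6648 FPKM in knockout and 4081 to 6898 FPKM in control. The 15 rod markers summed to 2536 to 3642 FPKM in knockout and 3015 to 3710 FPKM in control, so rod RNA was present in every library, and rods also express several of the feedback genes. Müller glia markers (7 of 10 with a row) summed to 101 to 111 FPKM in knockout and 91.8 to 120 FPKM in control. Bipolar markers (8 of 10) summed to 55.7 to 59.9 FPKM in knockout and 49.4 to 72.4 FPKM in control. Amacrine markers (2 of 7) summed to 5.01 to 8.15 FPKM in knockout and 8.98 to 11.2 FPKM in control. Ganglion cell markers (3 of 7) summed to 2.07 to 2.32 FPKM in knockout and to 23.9, 2.99 and 2.63 FPKM in controls 1 to 3. The microglia marker C1qb (1 of 5 with a row) was at most 1.47 FPKM, and no horizontal cell or pigment epithelium marker (0 of 4 each) could be used. Control 1 had the lowest mean correlation across genes with the other libraries (r = 0.90, against 0.93 to 0.95), so the members' differences are also given without it. Over all genes, 37.8% had their lowest value in control 1 and 33.5% their highest in control 3, ties included. Arntl, the gene for BMAL1, read 3.37, 2.28 and 3.48 FPKM in knockout and 2.9998, 2.60 and 3.27 FPKM in control. That value covers the whole gene, so it does not check the genotype. Nr1d1, a gene driven by BMAL1, read 2.87, 4.62 and 4.91 FPKM in knockout and 38.3, 47.1 and 56.3 FPKM in control (log2 difference -3.24, adjusted p = 0.00013, limma). Sequencing depth is unknown, because FPKM keep no read total.

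In each of the 6 libraries Guca1a was the most abundant of the 8 genes, followed by Rcvrn and Guca1b, while Cnga3 was the 7th and Gucy2f the least abundant. By mean level, Guca1a ranked 31st of all 9720 genes in knockout and 19th in control, and Rcvrn ranked 36th and 52nd. The channel subunit Cnga3 ranked 1330th in knockout and 1124th in control. Levels of different genes are compared as FPKM, which are per length. Not all neighbours in that order were apart. In knockout, the ranges overlapped between Guca1a and Rcvrn, between Gucy2e and Cngb3 and between Cngb3 and Slc24a2. In control these neighbours were apart, but Slc24a2 and Cnga3 overlapped. Summed over the 8 genes, the level was 703 ± 181 FPKM in knockout and 792 ± 152 FPKM in control (mean ± SD, n = 3 each). The sum made up 0.555% to 0.850% of all FPKM in knockout libraries and 0.712% to 0.783% in control libraries.

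**Figure D1:**
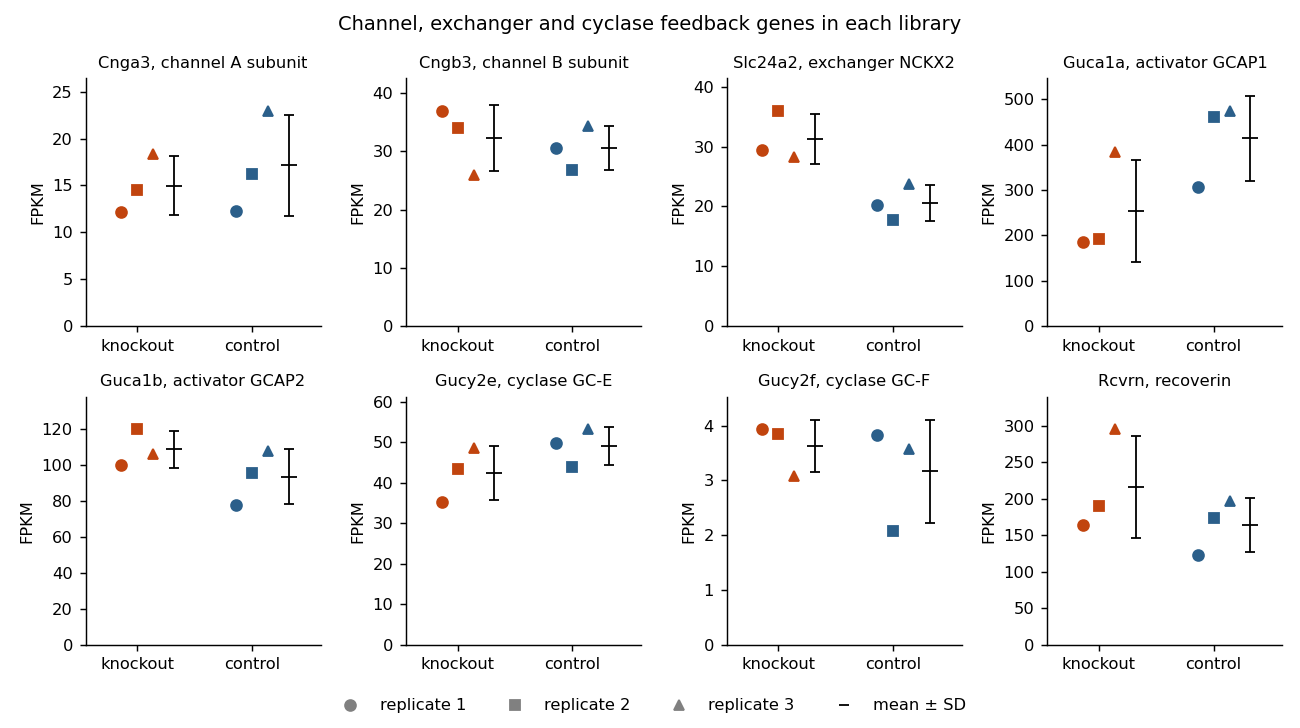
FPKM of each of the 8 genes in 3 knockout and 3 control libraries, on linear axes that start at 0, with a different axis for each gene. Symbols mark replicates, and the black bars give mean ± SD (n = 3). For Slc24a2 all knockout values (28.3 to 36.0 FPKM) lie above all control values (17.7 to 23.8 FPKM), and the groups overlap for the other 7 genes.

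The comparison asks which of these transcripts differ when cones lack BMAL1. None of the 8 passed an adjusted p of 0.05 in limma, where 9 of 8627 tested genes did (0.104%). An unadjusted p under 0.05 was reached by 2 of the 8, Slc24a2 and Guca1a, against 5.49% of all tested genes. Leaving out knockout 2 or control 2 brought this count to 0, and leaving out knockout 1 or control 3 brought it to 1. The groups did not overlap for 1 of the 8, Slc24a2, against 9.39% of all tested genes. 5 of the 8 log2 differences were positive and 3 negative, with a median of 0.12, against -0.02 over all tested genes. In bulk RNA of sorted cells, a lower share of a cell type and less RNA per cell cannot be told apart.

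**Figure D2:**
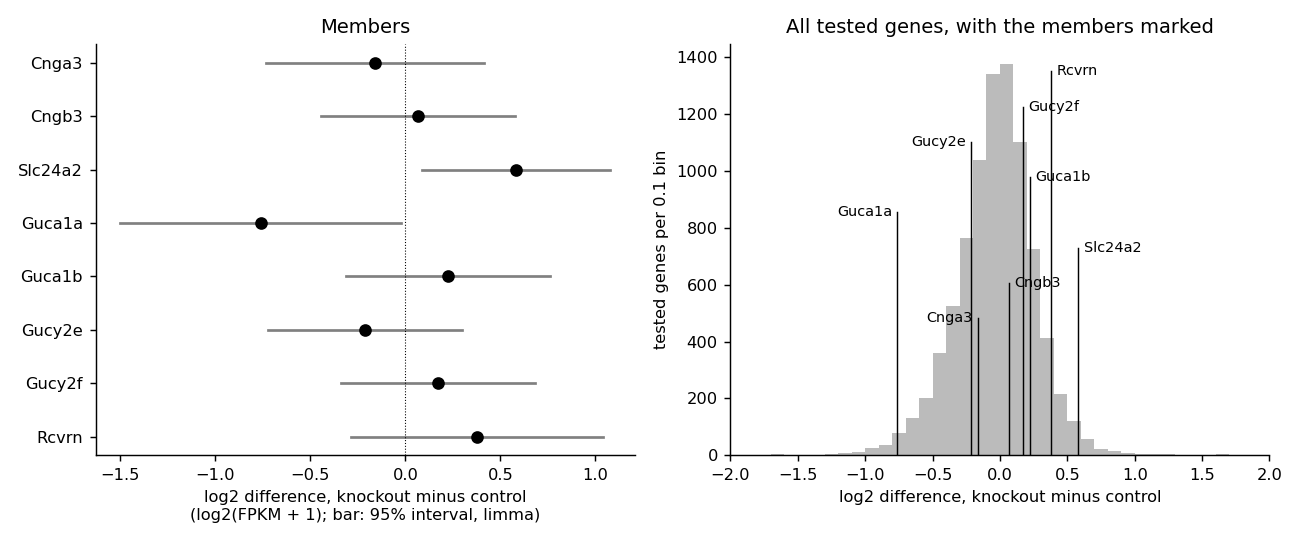
Left, the log2 difference (knockout minus control, of log2(FPKM + 1)) of each of the 8 genes with its 95% interval from limma. Right, the same differences as vertical lines (their heights only separate the names) over the distribution of all 8627 tested genes in bins of 0.1. Guca1a at -0.76 and Slc24a2 at 0.58 lie toward opposite tails, and the other 6 genes lie between them.

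Slc24a2 encodes NCKX2, an exchanger that trades calcium and potassium against sodium in cones and also in brain neurons. Its GRCm38 position is chr4:86983124-87230477, minus strand (ENSMUSG00000037996.17). The knockout libraries read 29.4, 36.0 and 28.3 FPKM, and the control libraries 20.2, 17.7 and 23.8 FPKM. Every knockout library was thus above every control library. The means were 31.2 ± 4.15 FPKM in knockout and 20.6 ± 3.03 FPKM in control (SD, n = 3 each), a ratio of 1.52. The log2 difference was 0.58 ± 0.23 (SE), with a 95% interval from 0.09 to 1.08, and did not pass over all genes (adjusted p = 0.87, limma). A larger absolute difference was found for 5.70% of tested genes. Without control 1 the log2 difference was 0.57 (adjusted p = 0.42, limma). Beside these values, the summed amacrine and the summed ganglion cell markers given above were lower in every knockout library than in any control library. Taken singly, each of the 2 amacrine and 3 ganglion cell markers overlapped between the groups. The rod, bipolar and Müller glia sums overlapped. Within those lists, 3 of the 15 rod markers (Cnga1, Nr2e3 and Reep6) were higher in every knockout library. In turn, 2 of the 7 Müller glia markers (Apoe and Clu) and 1 of the 6 bipolar markers tested (Gng13) were lower in every one. Over all tested genes, the groups were apart in either direction for 9.39%. The part of rods and other retinal cells in the Slc24a2 result was not tested. A fit with the rod markers as a covariate, Cnga1, Nr2e3 and Reep6 among them, is given below.

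The rod exchanger gene Slc24a1 (NCKX1) read 13.3, 11.9 and 12.5 FPKM in knockout and 9.76, 9.61 and 12.7 FPKM in control, and the groups overlapped. Divided by it within each library, Slc24a2 stood at 2.22, 3.03 and 2.26 in knockout and at 2.07, 1.85 and 1.88 in control. With the rod markers as a covariate, the log2 difference of Slc24a2 was 0.56 (adjusted p = 0.62, limma). Slc24a4, an exchanger gene also found in cones, measured 12.8 ± 2.04 FPKM in knockout and 12.1 ± 2.90 FPKM in control (SD, n = 3 each; log2 difference 0.09, adjusted p = 0.9996, limma).

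The tested genes most like Slc24a2 over the 6 libraries, by Pearson's r of log2(FPKM + 1), were Cep135, Crbn and Ccdc50. Their r was 0.99 each, over 6 libraries that share their preparation and scaling. Among the 8627 tested genes, 27 reached an r above 0.95 with Slc24a2, with Cep135, Crbn and Ccdc50 counted among them. Ccdc50 measured 4.76, 7.02 and 4.55 FPKM in knockout and 2.94, 2.60 and 3.98 FPKM in control, and like Slc24a2 it did not pass (adjusted p = 0.84, limma).

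Guca1a encodes GCAP1, the calcium sensor that activates the cyclase when calcium falls. Its GRCm38 position is chr17:47394558-47400584, minus strand (ENSMUSG00000023982.7). The knockout libraries read 185, 193 and 383 FPKM, and the control libraries 306, 462 and 475 FPKM. Knockouts 1 and 2 were below every control, while knockout 3 was above control 1, so the groups overlapped. The means were 254 ± 112 FPKM in knockout and 414 ± 94.1 FPKM in control (SD, n = 3 each), and control was 1.63 times knockout. The log2 difference was -0.76 ± 0.34 (SE), with a 95% interval from -1.50 to -0.02 (adjusted p = 0.90, limma). A larger absolute difference was found for 2.13% of tested genes. The overlap came from knockout 3 and control 1. Without knockout 3 the log2 difference was -1.10 (adjusted p = 0.43, limma), and without control 1 it was -0.97 (adjusted p = 0.32, limma). It was smaller without knockout 1 (-0.58), knockout 2 (-0.61), control 3 (-0.65) or control 2 (-0.67), with an adjusted p of at least 0.73 in limma. Rods also use GCAP1. With the rod markers as a covariate the log2 difference was -0.93 (adjusted p = 0.55, limma).

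Guca1b encodes GCAP2, a related sensor that is known mainly from rods. It is the neighbour of Guca1a, at GRCm38 chr17:47385393-47392967, plus strand (ENSMUSG00000023979.14). The genes face each other tail to tail, with 1590 bases between their ends and no shared exon. The knockout libraries read 99.9, 120 and 106 FPKM, and the control libraries 77.6, 95.4 and 108 FPKM. The groups overlapped, with control 1 the lowest. The means were 109 ± 10.2 FPKM in knockout and 93.6 ± 15.2 FPKM in control (SD, n = 3 each; log2 difference 0.22 ± 0.25 SE, 95% interval -0.31 to 0.76, adjusted p = 0.99, limma). Without control 1 the log2 difference of Guca1b was 0.096 (adjusted p = 0.94, limma). The differences of these adjacent genes had opposite signs, but neither passed.

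A ratio of 2 genes within a library does not depend on how the library was scaled. Guca1a over Guca1b was 1.85, 1.61 and 3.60 in knockout and 3.94, 4.84 and 4.41 in control. Every knockout ratio was below every control ratio, with means of 2.35 ± 1.09 in knockout and 4.40 ± 0.45 in control (SD, n = 3 each). The log2 ratio differed by -0.99, for which an exact two-sided permutation test gave p = 0.10, or 0.30 after Benjamini-Hochberg adjustment over 3 ratios. With 3 libraries against 3, 0.10 is the smallest p the test can give, so no ratio could pass 0.05. Left-out libraries moved the difference between -1.34 (without knockout 3) and -0.76 (without knockout 2), and it was -1.07 without control 1.

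**Figure D3:**
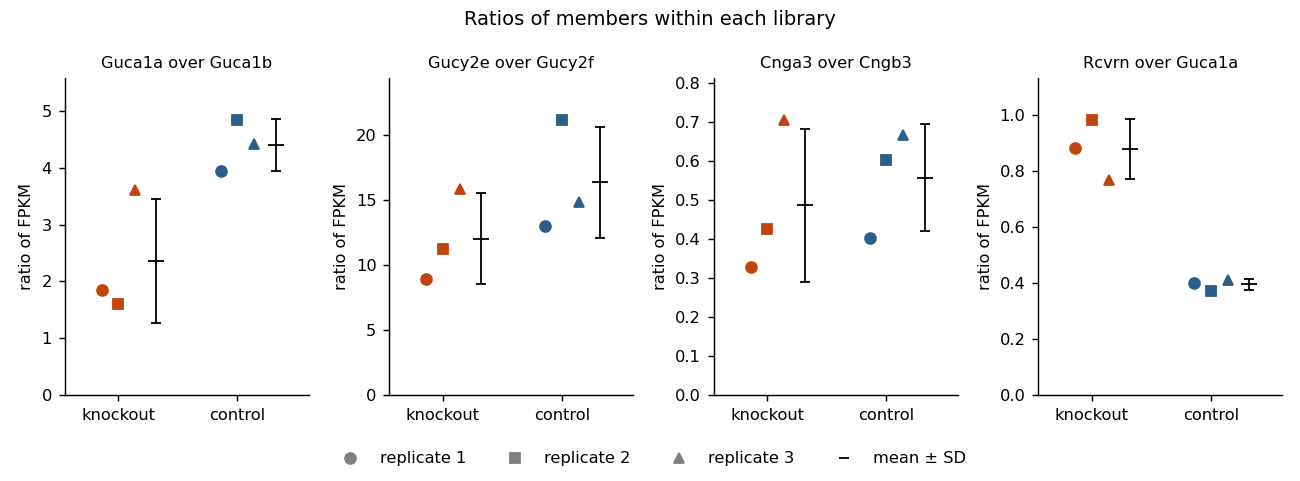
Ratio of the FPKM of 2 genes within each library, on linear axes that start at 0, for 3 knockout and 3 control libraries, with mean ± SD (n = 3). Guca1a over Guca1b reaches at most 3.60 in knockout and at least 3.94 in control, Rcvrn over Guca1a is at least 0.770 in knockout and at most 0.413 in control, while Gucy2e over Gucy2f and Cnga3 over Cngb3 overlap.

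The cyclases differed by more than 10 times in level in every library except knockout 1, where the ratio was 8.95. Gucy2e encodes GC-E, the main guanylate cyclase of mouse cones, and its GRCm38 position is chr11:69218117-69237036, minus strand (ENSMUSG00000020890.11). It read 35.2, 43.4 and 48.6 FPKM in knockout and 49.8, 44.0 and 53.2 FPKM in control. The groups overlapped, with the lowest value in knockout 1. The means were 42.4 ± 6.76 FPKM in knockout and 49.0 ± 4.66 FPKM in control (SD, n = 3 each; log2 difference -0.21 ± 0.23 SE, 95% interval -0.72 to 0.30, adjusted p = 0.99, limma). Without control 1 the log2 difference was -0.20.

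Gucy2f encodes GC-F, a cyclase known mainly from rods, and its GRCm38 position is chrX:142081160-142196931, minus strand (ENSMUSG00000042282.4). It read 3.93, 3.85 and 3.07 FPKM in knockout and 3.83, 2.08 and 3.58 FPKM in control. The groups overlapped, and control 2 was the lowest. The means were 3.62 ± 0.47 FPKM in knockout and 3.16 ± 0.95 FPKM in control (SD, n = 3 each). The log2 difference was 0.17 ± 0.24 (SE; 95% interval -0.34 to 0.68, adjusted p = 0.9996, limma), and it turned to -0.031 without control 2 and was 0.29 without control 1. Gucy2e over Gucy2f was 8.95, 11.3 and 15.8 in knockout and 13.0, 21.1 and 14.9 in control. These ratios overlapped (log2 difference -0.45, exact two-sided permutation p = 0.30, adjusted p = 0.45 over 3 ratios).

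For both channel genes the groups differed by less than their spread. Cnga3 encodes the A subunit that forms the ion path, and its GRCm38 position is chr1:37214434-37263384, plus strand (ENSMUSG00000026114.14). It read 12.2, 14.5 and 18.3 FPKM in knockout and 12.3, 16.2 and 23.0 FPKM in control, so the ranges overlapped and the highest value was in control 3. The means were 15.0 ± 3.11 FPKM in knockout and 17.2 ± 5.39 FPKM in control (SD, n = 3 each). The log2 difference was -0.16 ± 0.26 (SE; 95% interval -0.74 to 0.41, adjusted p = 0.9996, limma), and it turned to 0.060 without control 3 and was -0.36 without control 1.

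Cngb3 encodes the B subunit, which tunes the channel, and its GRCm38 position is chr4:19280850-19510623, plus strand (ENSMUSG00000056494.7). Its values were 37.0, 33.9 and 25.9 FPKM in knockout and 30.5, 26.9 and 34.4 FPKM in control. Knockout held both the highest and the lowest value. The means were 32.3 ± 5.71 FPKM in knockout and 30.6 ± 3.76 FPKM in control (SD, n = 3 each). The log2 difference was 0.07 ± 0.24 (SE; 95% interval -0.44 to 0.58, adjusted p = 0.9996, limma), and it turned to -0.036 without knockout 1 and to -0.020 without control 2, and was 0.069 without control 1.

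Cngb3 RNA exceeded Cnga3 RNA in every library. Cnga3 over Cngb3 was 0.329, 0.427 and 0.707 in knockout and 0.404, 0.604 and 0.668 in control, and the groups overlapped. The log2 ratio differed by -0.24 (exact two-sided permutation p = 0.70, adjusted p = 0.70 over 3 ratios), and by 0.0083 without knockout 1. The rod channel genes were of similar level. Cnga1, the rod A subunit, read 19.7, 17.0 and 18.1 FPKM in knockout and 14.5, 13.2 and 17.0 FPKM in control (log2 difference 0.28, adjusted p = 0.96, limma). Every knockout value was above every control value by a small margin. Cngb1, the rod B subunit, read 21.3, 16.6 and 22.7 FPKM in knockout and 14.2, 19.1 and 24.7 FPKM in control, and overlapped. Relative to Cngb1, Cngb3 averaged 1.64 ± 0.46 in knockout and 1.65 ± 0.43 in control (SD, n = 3 each).

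Rcvrn encodes recoverin, the calcium sensor that holds back opsin kinase. Its GRCm38 position is chr11:67695326-67703333, plus strand (ENSMUSG00000020907.1). The knockout libraries read 164, 190 and 295 FPKM, and the control libraries 123, 173 and 196 FPKM. Knockout 3 was highest and control 1 lowest, and the groups overlapped. The means were 216 ± 69.6 FPKM in knockout and 164 ± 37.5 FPKM in control (SD, n = 3 each). The log2 difference was 0.38 ± 0.30 (SE; 95% interval -0.29 to 1.04, adjusted p = 0.96, limma). It was 0.13 without knockout 3 and 0.18 without control 1.

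The summed level of the 8 genes overlapped between the groups, whereas the shares of its largest contributors, Guca1a and Rcvrn, did not. Guca1a made up 32.7%, 30.4% and 42.2% of the 8 genes' summed FPKM in knockout libraries, and 49.1%, 55.2% and 51.8% in control libraries. The share of Rcvrn was 28.9%, 29.9% and 32.5% in knockout and 19.7%, 20.7% and 21.4% in control. For each of these shares the groups were apart. The share of Guca1b, the next largest, overlapped, with 17.6%, 18.9% and 11.7% in knockout and 12.5%, 11.4% and 11.7% in control. Shares within a library depend on each other, since a lower share of Guca1a leaves more for the other genes. Rcvrn over Guca1a was 0.884, 0.985 and 0.770 in knockout and 0.402, 0.375 and 0.413 in control, and the mean log2 ratio was 1.14 higher in knockout. Rcvrn over Guca1b, in contrast, overlapped, with 1.64, 1.58 and 2.77 in knockout and 1.58, 1.81 and 1.82 in control. The shares and both Rcvrn ratios were chosen after the values were seen, so they are given as a description without a test.

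**Figure D4:**
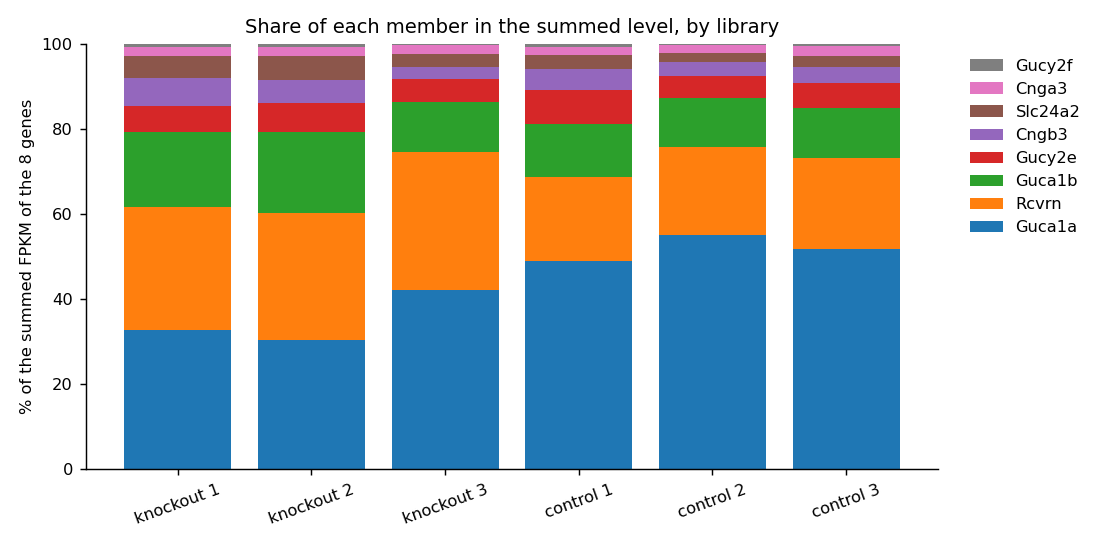
Stacked bars give the share of each gene in the summed FPKM of the 8 genes, in percent, for each of the 6 libraries. The Guca1a share is 30.4% to 42.2% in knockout and 49.1% to 55.2% in control, and the Rcvrn share is 28.9% to 32.5% in knockout and 19.7% to 21.4% in control.

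Rcvrn sits within a stretch of chromosome 11 where 3 neighbouring genes read higher in every knockout library, of which only Gas7 passed. These neighbours were chosen after their values were seen, and the groups were apart for 9.39% of all tested genes. Rcvrn lies 6335 bases past the end of Gas7, which encodes a cytoskeletal regulator. It is inside the span of Glp2r, a gut peptide receptor gene on the opposite strand. No exon of Rcvrn overlaps an exon of another annotated gene. Gas7 read 47.7, 49.96 and 56.6 FPKM in knockout and 17.6, 13.3 and 16.4 FPKM in control, and it was one of the 9 genes that passed (log2 difference 1.65, adjusted p = 0.0084, limma). That call ended without knockout 2 (adjusted p = 0.062, limma), knockout 3 (0.070), control 2 (0.12) or control 3 (0.071), with log2 differences from 1.54 to 1.68. It shares 66 exon bases with Glp2r, and reads there cannot be assigned to either gene if strand was not used. Glp2r read 32.2, 31.8 and 32.6 FPKM in knockout and 18.2, 15.4 and 20.8 FPKM in control (log2 difference 0.80, adjusted p = 0.49, limma). Gsg1l2, the next gene on the far side, read 5.92, 8.91 and 6.40 FPKM in knockout and 3.18, 2.64 and 2.45 FPKM in control (log2 difference 1.09, adjusted p = 0.20, limma). For these 3 neighbours the groups were apart, while Rcvrn overlapped.

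**Figure D5:**
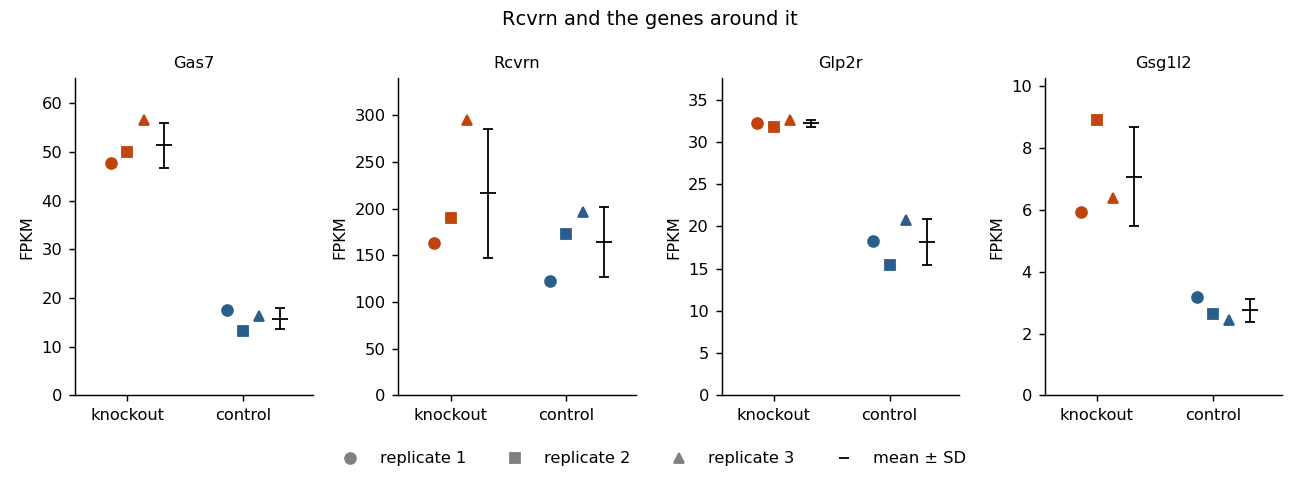
FPKM of Rcvrn and of 3 genes around it on chromosome 11 in 3 knockout and 3 control libraries, on linear axes that start at 0, with mean ± SD (n = 3). Gas7, Glp2r and Gsg1l2 read higher in every knockout library than in any control library, and Rcvrn overlaps between the groups (164 to 295 FPKM in knockout, 123 to 196 FPKM in control).

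Among the other nearest neighbours with a row in the table, none passed. Mrps10, beside Guca1b, differed by -0.13 on the log2 scale, Cpne3, beside Cngb3, by 0.03, and Acer2 and Mllt3, on either side of Slc24a2, by -0.20 and 0.34. Cntrob, beside Gucy2e, differed by 0.53 and Nxt2, beside Gucy2f, by 0.10. The smallest adjusted p of these 6 was 0.897 (Cntrob, limma).

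The rest of the light response gives the setting for the feedback genes. Of 13 other genes of the cone light response tested, none passed in either direction, 5 differences were positive and 8 negative, and the median was -0.07. The groups were apart for 1 of the 13, against 9.39% of all tested genes. That gene was Opn1sw, which encodes the short-wavelength opsin. Its values were 1774, 1977 and 2091 FPKM in knockout and 735, 1005 and 1202 FPKM in control (log2 difference 1.01, adjusted p = 0.65, limma). Pde6h, the inhibitory subunit of the cone phosphodiesterase, read 158, 195 and 284 FPKM in knockout and 209, 425 and 347 FPKM in control (log2 difference -0.60, adjusted p = 0.91, limma). The medium-wavelength opsin gene Opn1mw overlapped too (log2 difference -0.48, adjusted p = 0.94, limma).

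Of 35 further genes that handle calcium or cyclic GMP, 22 had a row and 20 were tested. None passed in either direction, 7 differences were positive and 13 negative, and the median was -0.09. The groups were apart for 2 of the 20, Cnga1 and Pcp4, a share near the 9.39% of all tested genes. Pcp4, which encodes a small calmodulin regulator, had the smallest p of this group. It read 8.97, 4.40 and 3.32 FPKM in knockout and 9.15, 9.89 and 8.98 FPKM in control (log2 difference -0.75, adjusted p = 0.85, limma). Knockout 1 nearly met the lowest control. Calm3, one of the calmodulin genes, read 9.53, 10.9 and 16.3 FPKM in knockout and 15.2, 18.3 and 19.2 FPKM in control (log2 difference -0.51, adjusted p = 0.90, limma). Guk1 encodes guanylate kinase, which returns GMP to the pool from which cyclic GMP is made. It read 76.4, 80.3 and 106 FPKM in knockout and 87.1, 152 and 165 FPKM in control (log2 difference -0.58, adjusted p = 0.90, limma). Rd3, whose protein restrains the cyclases and escorts them to the outer segment, measured 30.2 ± 5.16 FPKM in knockout and 34.7 ± 10.2 FPKM in control (SD, n = 3 each; adjusted p = 0.9996, limma). Tulp1, a photoreceptor transport gene and the most abundant of the group by mean, measured 147 ± 30.2 FPKM in knockout and 153 ± 8.80 FPKM in control (SD, n = 3 each; adjusted p = 0.9996, limma).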

How the data were processed

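Poly(A) RNA of 6 libraries (100 ng RNA each, per the labels' protocols) was sequenced from sorted cones. The authors deposited 1 table of FPKM values with 1 column per library, in which 0.1 is the lowest value. Per the submitters' processing notes the build was mm10 and the tools were Cufflinks 2.2.1, TopHat2 2.1.0, DESeq2 and HTSeq, with no role stated. Not given in the sources used here are the annotation, the gene lengths and the use of strand. A length error that scales a gene alike in all libraries moves levels between genes. It leaves the gene's ratio between groups unchanged, but can change its log2 difference through the 1 FPKM added before the log.

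Groups came from genotype labels. Positions are from GENCODE vM21 (GRCm38, the assembly of mm10). 9702 of 9720 gene IDs matched. A filter at a mean of 1 FPKM left 8627 genes, and limma 3.58.1 (R 4.3.3) tested them on log2(FPKM + 1) (variance trend, two-sided, Benjamini-Hochberg over all tested genes, threshold 0.05), after a check on simulated data. This scale understates changes of genes near 1 FPKM. Depth is unknown, so precision rests on the spread between 3 libraries.

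The genes, lists and tests were chosen with earlier results of these data known. Named were all 8 genes, the rod counterparts Cnga1, Cngb1 and Slc24a1, the 3 smallest p and the most abundant member of each pathway list, and the 3 genes most like the member of smallest p. Slc24a4, Rd3, C1qb and the genes next to members were added after their values were seen. Figures were drawn with matplotlib 3.10.9 and tables made with numpy 2.4.6 and pandas 2.3.3 under Python 3.11.15. Alternatives covered pseudocount, filter, scaling, variance model, array weights, rod covariate, replicate block and each library left out.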

Additional observations from a re-analysis of the deposited data

How the results depend on the processing

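None of the 8 genes passed under any of 16 alternatives. The smallest adjusted p among them was 0.22 (limma), for Slc24a2 with array weights. Over all tested genes, 9 passed, 23 with array weights, and 6 to 13 with a library left out. Slc24a2 (0.48 to 0.69), Guca1a (-1.10 to -0.58), Guca1b (0.10 to 0.33), Gucy2e (-0.31 to -0.09) and Rcvrn (0.13 to 0.55) kept the sign of their log2 difference in all 16. With a library left out, Cnga3 ran from -0.36 to 0.060, Cngb3 from -0.036 to 0.21, Gucy2f from -0.031 to 0.29 and the log2 difference of the Cnga3 over Cngb3 ratio from -0.54 to 0.0083. The cause of these sign changes was not tested. With a minimum mean of 5 FPKM, Gucy2f could not be tested.

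The replicate numbers were not treated as pairs in the main fit. Deviations of same-numbered libraries from their group means correlated at -0.12, -0.09 and -0.03 across genes. Those of libraries with different numbers correlated at -0.04 to 0.10. With 3 libraries per group, these values cannot show whether pairs exist. With the replicate block, 6 genes and 0 of the 8 passed, against 9 and 0 without it, and Gas7 did not pass (adjusted p = 0.078, limma).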
